A study of Mus musculus with 11 samples.

Results

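The unfolded protein response and the resident folding machinery of the endoplasmic reticulum (ER) were followed through 32 listed genes in whole mouse pancreas. Each gene was read through the probe set that names it alone and has the highest mean over all arrays. All 32 listed genes had such a probe set, among 18194 genes in all, and all 32 were bright enough to be tested, among 15897 genes tested. Their mean log2 signals lay between 7.58 and 14.63, above the limit of 6.87 under which a gene was not tested.

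RNA came from the pancreas of female Balb/C offspring at 30 days of age and was hybridised to 11 Affymetrix arrays, 1 for each labelled biological replicate. The dams ate a diet with 20% protein (control) or a diet of equal energy with 8% protein (low protein) through gestation, and every dam received the control diet from birth on, so all pups were nursed by dams on the control diet. The pups then received either streptozotocin (STZ), a toxin taken up by insulin-producing beta cells, at 35 mg/kg body weight, or citrate buffer alone (sham), on each of days 1 to 5 of life. The groups were control diet with sham injection (control sham, n = 3), control diet with STZ (control STZ, n = 2, replicates 1 and 3, replicate 2 not analysed here), low protein diet with sham injection (low protein sham, n = 3) and low protein diet with STZ (low protein STZ, n = 3). The labels name neither dams nor litters, so diet and litter cannot be told apart, and p-values measure the spread between these samples. In whole tissue, fewer cells of a type and less RNA per cell cannot be told apart. The design asks what each exposure, and the combination of both, does to the pancreas.

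Proteins bound for secretion are folded in the ER, and the exocrine pancreas, which secretes digestive enzymes in bulk, depends on that machinery more than most tissues. Chaperones such as Hspa5 (BiP) hold unfolded chains, lectin chaperones and disulfide isomerases finish the fold, and chains that fail are sent back to the cytosol for ER-associated degradation. When unfolded protein accumulates, the membrane sensors Atf6, Ern1 (IRE1) and Eif2ak3 (PERK) start the unfolded protein response, which raises transcription of chaperones and degradation factors and slows translation. Atf6 and the spliced product of Xbp1 act through short promoter sequences called ER stress response elements.

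Those elements are shown first because they mark which of the listed genes carry the classical binding sequence of the response. RefSeq promoters (build GRCm38.p6, 250 bases before to 50 bases after the transcription start) were given for 28 of the 32 genes. Derl1, Hyou1, Manf and Atf6 had no entry. The full ER stress response element (ERSE), which is CCAAT, 9 bases of any kind and CCACG on either strand, was present in 9 of those 28 genes (32.1%) and in 37 of all 27025 genes with a promoter (0.137%). The genes were listed for their part in this response, so that share describes the list and is not a result of the arrays. Hsp90b1 held 2 copies and the other 8 genes 1 each, and the 10 sites lay between 26 and 212 bases before the start. The copies are written with the constant ends in capitals and the 9 spacer bases in lower case, each 5′ to 3′ on the strand that reads CCAAT first:
Hspa5: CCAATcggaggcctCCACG
Hsp90b1: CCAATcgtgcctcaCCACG
Hsp90b1: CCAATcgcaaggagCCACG
Calr: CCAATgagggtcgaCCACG
Canx: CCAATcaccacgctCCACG
Pdia6: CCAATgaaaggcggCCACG
Dnajc3: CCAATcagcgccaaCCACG
Creld2: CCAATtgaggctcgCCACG
Derl3: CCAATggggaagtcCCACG
Syvn1: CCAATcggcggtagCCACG
The Hspa5 copy lies at chr2:34772025-34772043 on the plus strand, 47 to 65 bases before the start. The shorter ERSE-II, which is ATTGG, 1 base of any kind and CCACG, was found in Herpud1 (chr8:94386377-94386387) and, just past the start, in Dnajb11, against 12 of the 27025 genes (0.0444%). The element TGACGTGG, which spliced Xbp1 binds and which is called UPRE, was in 1 listed gene, Txndc5 (0.714% of all genes). The composite element TGATGNAAN, read by Atf4 and Ddit3 and called CARE, was in Herpud1 and Txndc5 (4.5% of all genes). None of these sites overlapped a site of another motif in the listed promoters. A match is a description of letters and shows no binding.

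The 250 bases before the start are given in full for 4 genes. Hspa5 is the reference gene of the response, Sdf2l1 and Creld2 had the largest STZ differences described below, and Herpud1 carries the ERSE-II. Capitals mark the constant ends of an ERSE or ERSE-II, read on the gene's strand, so that the reversed copy in Creld2 appears as CGTGG and ATTGG. Sdf2l1 held no match to any of the 4 motifs in this window.
Hspa5, chr2:34771840-34772089, plus strand: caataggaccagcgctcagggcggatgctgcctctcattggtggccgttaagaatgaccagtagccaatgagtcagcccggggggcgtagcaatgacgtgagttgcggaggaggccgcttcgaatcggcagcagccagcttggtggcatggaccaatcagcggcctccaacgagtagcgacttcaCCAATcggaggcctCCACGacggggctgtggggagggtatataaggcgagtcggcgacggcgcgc
Creld2, chr15:88819396-88819645, plus strand: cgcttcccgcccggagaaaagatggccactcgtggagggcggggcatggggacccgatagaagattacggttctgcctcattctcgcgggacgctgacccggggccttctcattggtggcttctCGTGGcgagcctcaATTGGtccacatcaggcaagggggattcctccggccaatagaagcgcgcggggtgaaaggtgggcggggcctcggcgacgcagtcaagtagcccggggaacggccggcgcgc
Herpud1, chr8:94386179-94386428, plus strand: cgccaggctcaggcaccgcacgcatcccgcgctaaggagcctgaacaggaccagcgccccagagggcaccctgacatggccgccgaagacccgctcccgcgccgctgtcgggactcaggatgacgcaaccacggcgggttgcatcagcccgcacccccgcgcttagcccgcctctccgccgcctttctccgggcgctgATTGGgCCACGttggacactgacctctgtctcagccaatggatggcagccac
Sdf2l1, chr16:17132384-17132633, minus strand: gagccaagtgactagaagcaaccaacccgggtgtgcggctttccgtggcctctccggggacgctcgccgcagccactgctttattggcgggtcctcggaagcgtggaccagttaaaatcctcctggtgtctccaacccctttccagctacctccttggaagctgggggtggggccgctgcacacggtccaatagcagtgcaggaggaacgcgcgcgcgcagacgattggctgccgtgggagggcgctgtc

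The arrays shared a median log2 signal (7.92 to 7.97), but the spread of signals within an array ran from an SD of 1.52 on low protein STZ 1 to 1.67 on control sham 1, and those 2 arrays were the ends of the first principal component (38.4% of variance). The difference between 3′ and 5′ control probe sets, a sign of RNA integrity, was lowest on control STZ 1 (1.08) and highest on control STZ 3 (1.93). The tissue matched its label, with the acinar enzyme Cpa1 between 15.02 and 15.81 on all arrays. Ins2 (insulin), a product of the cells STZ targets, was at 14.81, 15.24 and 14.86 in control sham and at 13.10 and 13.41 in control STZ. In low protein offspring Ins2 overlapped between the injections, at 14.47, 13.91 and 13.27 in sham and 12.89, 13.57 and 12.93 in STZ. Across all 15897 genes, limma with Benjamini-Hochberg adjustment called 0 genes at 0.05 in each of the 5 comparisons. At an unadjusted p under 0.05 there were 644 genes for STZ in control diet, 412 for STZ in low protein diet, 1655 for diet in sham, 1509 for diet after STZ and 566 for the difference between the STZ effects. No listed gene therefore passed the test, and the differences below are values, not calls.

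Single arrays stood out more than groups did. Control STZ 1 had the highest signal of all 11 arrays for 14 of the 32 genes, all of them luminal folding genes or their partners except the degradation factor Derl3, and it exceeded the gene's own mean for 30. Low protein STZ 1 had the lowest signal for 19 genes and lay below the gene's own mean for all 32. Low protein STZ 3, of the same group, lay above the mean for 27. These counts are as deposited. Of all genes tested, 58.2% exceeded their own mean on control STZ 1 and 40.8% on low protein STZ 1. After cyclic loess scaling, 24 listed genes exceeded their mean on control STZ 1 and 9 on low protein STZ 1. Low protein STZ 3 had 26 above. Low protein sham 2 was then the lowest array by median deviation, at -0.21 with 6 genes above, against -0.15 on low protein STZ 1. As deposited, the spread within low protein STZ was wide, with a median SD over the genes of 0.47. It was 0.26 in control sham, 0.19 in control STZ and 0.20 in low protein sham.

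The genes did not move as one block between arrays of the same group. Control sham 1 was the highest array for 9 genes, namely the 3 sensors Ern1, Atf6 and Eif2ak3, the degradation genes Sel1l, Edem1, Edem2 and Derl1, the co-chaperone Dnajb9 and the isomerase P4hb. On that array the median deviation of the sensors from their own means was 0.62, while that of the luminal chaperones Hspa5, Hsp90b1 and Hyou1 was -0.31. Control sham 2 showed the reverse, with -0.53 for the sensors and 0.44 for the luminal chaperones. Eif2ak3, the PERK kinase, measured 11.54 on control sham 1, 9.91 on control sham 2 and 10.88 on control sham 3. Creld2, a luminal protein induced by ER stress, measured 10.50, 12.11 and 10.75 on the same arrays, and for both genes the range over these sham-injected controls was wider than any group difference of the same gene.

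**Figure D1:**
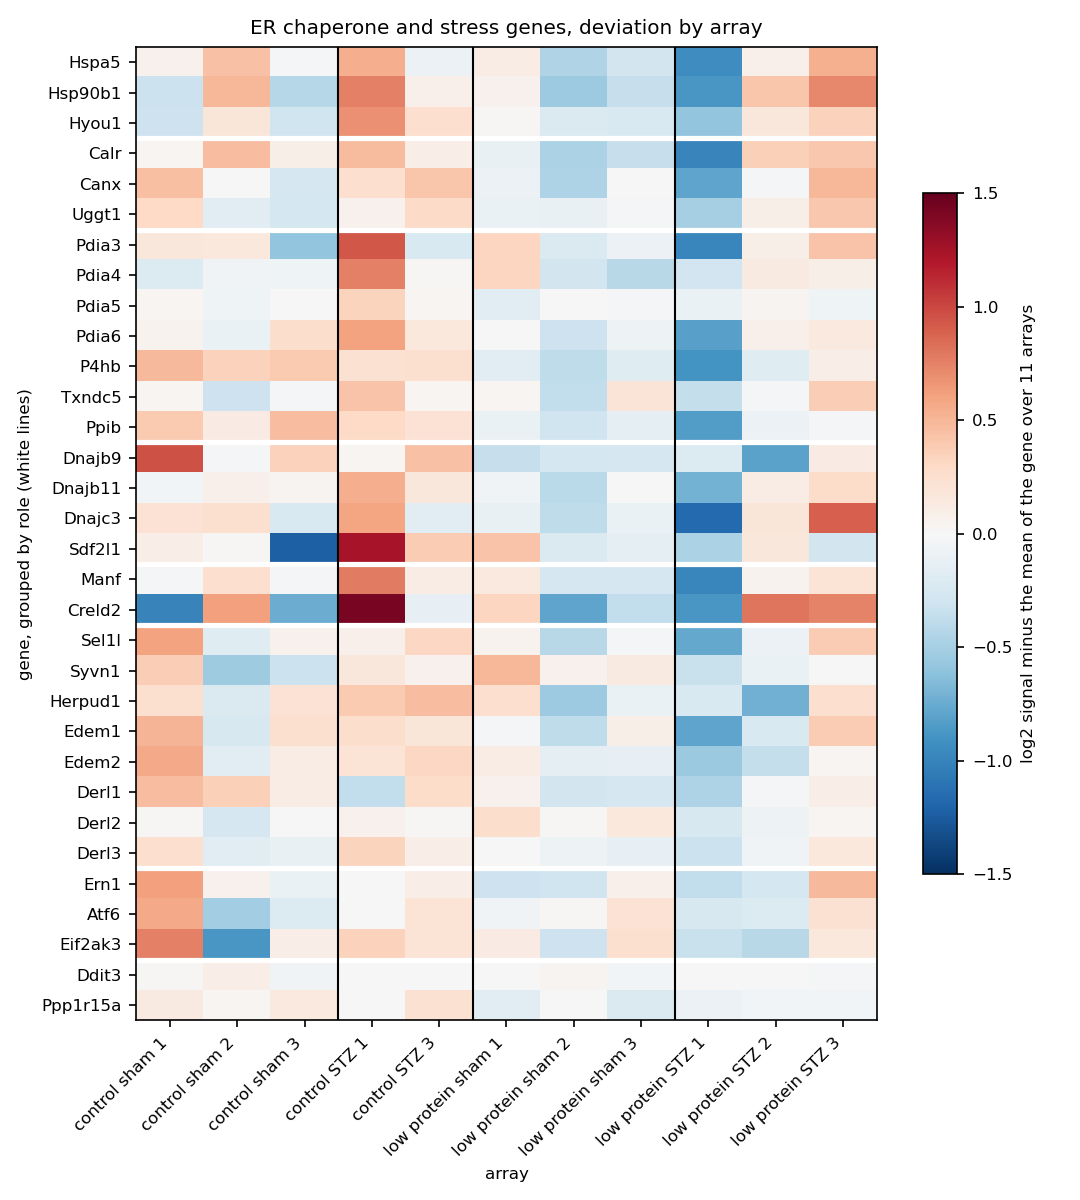
Log2 signal of each of the 32 genes (rows, grouped by role) on each of the 11 arrays (columns), minus the gene's mean over all arrays. As deposited, control STZ 1 is the highest array for 14 genes and low protein STZ 1 is below the mean for all 32. With cyclic loess 9 genes are above their mean on low protein STZ 1. As deposited, control sham 1 and 2 oppose each other for sensors (0.62 and -0.53) and luminal chaperones (-0.31 and 0.44).

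STZ in offspring of control-diet dams went with somewhat higher signals of ER folding genes. The median difference was 0.21 on the log2 scale over the 32 genes, with 26 above 0 (27 after cyclic loess scaling, at the same median of 0.21), beside a median of 0.00 over all genes tested, of which 50.7% were above 0. The 594 genes whose mean signal was at least that of the median listed gene had a median of -0.02. Sdf2l1 and Hyou1 were higher at an unadjusted p under 0.05, as were 1.92% of all genes, and no listed gene was lower (2.13% of all genes). Neither passed after adjustment (adjusted p = 0.999, limma).

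Sdf2l1, a luminal partner of the co-chaperone Dnajb11, had the largest difference of the list. It measured 11.06, 10.97 and 9.72 in control sham and 12.19 and 11.34 in control STZ. Both STZ arrays lay above all sham arrays, and control sham 3 lay far below its group. The difference was 1.18 ± 0.40 (SE), a fold of 2.27, and it was 0.75 without control sham 3 and also 0.75 without control STZ 1. Hyou1, the large chaperone that serves as exchange factor for Hspa5, measured 12.55, 13.04 and 12.56 in control sham and 13.54 and 13.11 in control STZ. Its STZ arrays were also above all sham arrays, by a mean of 0.61 ± 0.26 (SE), or 0.40 without control STZ 1.

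Altogether 5 genes had both STZ arrays above all 3 sham arrays, an arrangement that 8.64% of all genes showed. Besides Sdf2l1 and Hyou1 these were Pdia4, a disulfide isomerase (0.49 ± 0.24), Dnajb11, a co-chaperone of Hspa5 (0.33 ± 0.25), and Herpud1, a scaffold of the degradation complex (0.35 ± 0.28). Without control STZ 1, Pdia4 was at 0.12, Dnajb11 at 0.15 and Herpud1 at 0.39. A further probe set of Pdia4 gave 0.03. Only P4hb, the archetypal protein disulfide isomerase, lay the other way round (-0.18 ± 0.22, against 7.72% of all genes). Creld2 had the second largest difference, 1.03 ± 0.64, but its arrays overlapped, at 10.50, 12.11 and 10.75 against 12.93 and 11.38. Its high value came from control STZ 1, without which the difference was 0.26.

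Hspa5 itself did not stand apart. It measured 13.60, 13.98 and 13.50 in control sham and 14.08 and 13.45 in control STZ, which gave 0.07 ± 0.36. The sign turned to -0.24 without control STZ 1. The companion chaperone Hsp90b1 (Grp94) was 0.50 ± 0.44 higher, and the lectin chaperones Calr and Canx 0.10 ± 0.35 and 0.27 ± 0.32. The glycoprotein folding sensor Uggt1 was 0.22 ± 0.23 higher. The remaining isomerases were spread from -0.07 ± 0.21 for Ppib, a proline isomerase, to 0.44 ± 0.43 for Pdia3, with Pdia5 at 0.19 ± 0.10, Pdia6 at 0.31 ± 0.26 and Txndc5 at 0.33 ± 0.22. Manf, a secreted chaperone cofactor, was 0.37 ± 0.32 higher. None of the values in this group reached 2 standard errors. Without control STZ 1, Pdia3 turned to -0.14, and Hsp90b1 was at 0.16, Txndc5 at 0.125, Pdia6 at 0.09 and Manf at 0.04.

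The degradation genes and sensors came next, and no test compared them with the chaperones. The degradation group had a median of 0.10 over 8 genes, with Derl3 at 0.22 ± 0.15, Syvn1, the ubiquitin ligase of the pathway, at 0.28 ± 0.23 and Derl2 at 0.12 ± 0.11. Sel1l was at 0.03 ± 0.30, Edem1 at 0.05 ± 0.30 and Edem2 at 0.08 ± 0.21. Derl1 was -0.36 ± 0.21 on the probe set used, but its 3 other probe sets gave 0.35, 0.11 and -0.13, so its direction is uncertain. The sensors were at -0.15 ± 0.26 for Ern1, 0.16 ± 0.26 for Atf6 and 0.28 ± 0.37 for Eif2ak3. The co-chaperone Dnajb9 was at -0.19 ± 0.29 and Dnajc3, which restrains PERK signalling, at 0.14 ± 0.46. The outputs of the PERK branch showed the smallest differences of all, with -0.02 ± 0.07 for Ddit3 (CHOP), the factor tied to death under unresolved stress, and 0.01 ± 0.09 for Ppp1r15a (GADD34), which restores translation. Ddit3 had the same value, 9.12, on 4 of the arrays, and 8.22% of probe sets had such a repeat on 4 or more arrays, which limits what its small spread shows.

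All 9 genes with a full ERSE were above 0 after STZ in control diet, with a median of 0.27, as were 50.7% of all genes tested. Of the 19 genes whose promoter held none, among them Herpud1 and Dnajb11 with the ERSE-II, 14 were above 0, with a median of 0.12. Of the 4 genes without a promoter entry 3 were above 0, with a median of 0.27. Leaving out control STZ 1 left 6 of the 9 above 0 (median 0.11) and 14 of the 19 (median 0.12). Control STZ 1 had the highest signal for 6 of the 9. Without control sham 3, 7 of the 9 were above 0 (median 0.17) and 14 of the 19 (median 0.11).

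The group difference moved with single arrays. Without control STZ 1 the median of the 32 genes was 0.11, with 23 above 0, and without control STZ 3 it was 0.32, with 24 above 0. Without control sham 3 it was 0.14. Summed marker lists gave a measure of what else moved between these groups. Acinar markers (16 genes measured of 18) averaged 14.48 to 14.62 in control sham and 14.40 to 14.44 in control STZ. Beta cell markers (9 of 12) averaged 9.33 to 9.73 and 8.61 to 8.62. Among them Nkx6-1 was not lower, at 8.18, 8.24 and 8.30 in control sham and 8.30 and 8.31 in control STZ. Pcsk1 overlapped between these groups. The other beta cell markers measured had both control STZ arrays below all control sham arrays, but Slc2a2 and Slc30a8 were too dim to be tested. Heat shock genes of the cytosol and mitochondria, listed as a sign of handling stress, averaged 9.59 to 9.75 and 9.61 to 9.79. Control STZ 1 was the array at 9.79. Of these 9 genes 7 were bright enough to be tested, and Hspa1a and Hspa1b were not. Immediate early genes, also listed as a sign of handling stress, averaged 8.45 to 8.67 in control sham and 8.52 to 8.60 in control STZ. Whether cell composition or the RNA integrity of control STZ 1 plays a part in the ER gene values was not tested beyond the fit with RNA integrity as a covariate, in which the median was 0.14, with 25 genes above 0.

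**Figure D2:**
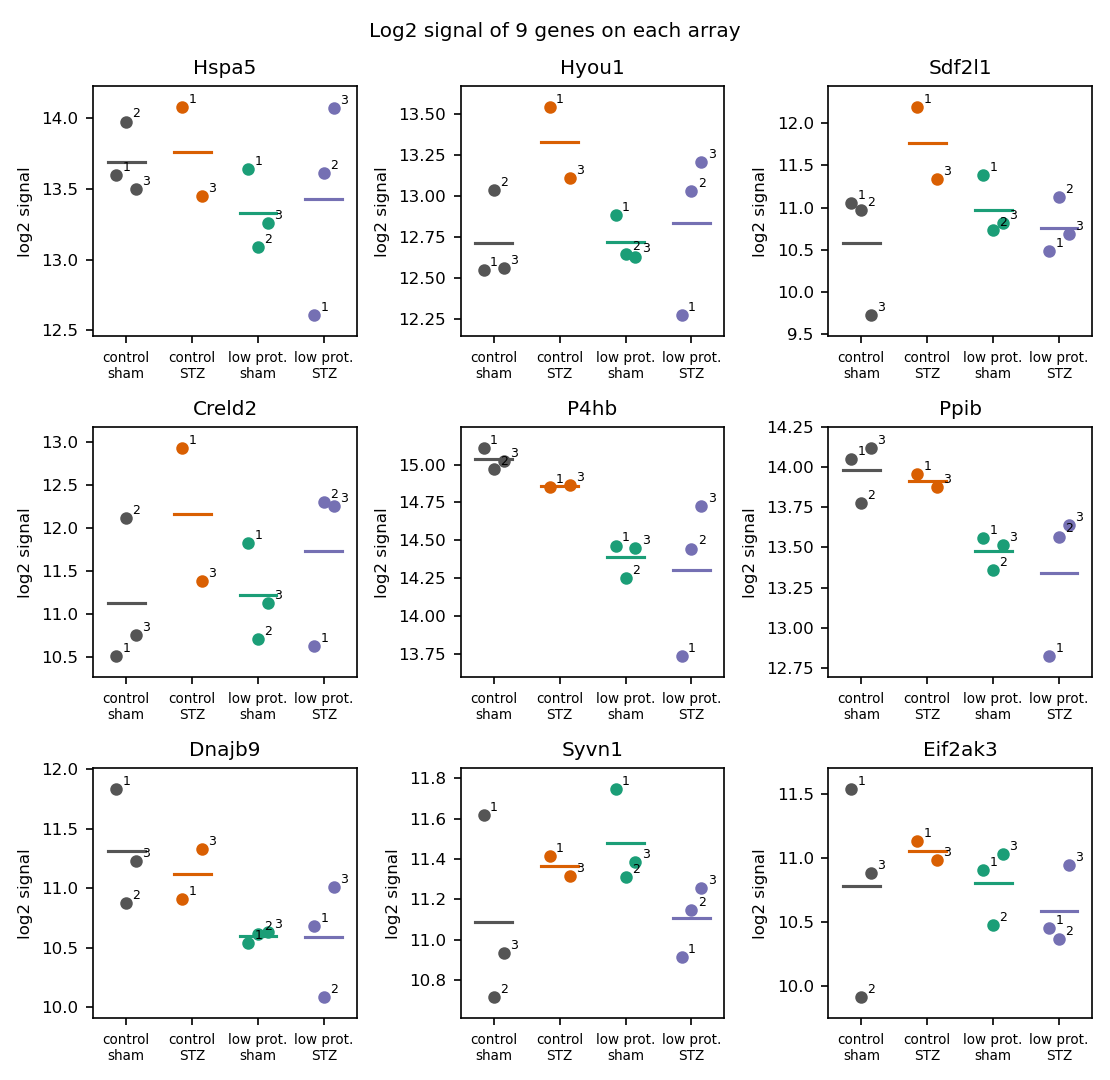
Log2 signal on each array for 9 of the listed genes, by group, with replicate numbers beside the points and the group mean as a bar (axes differ between panels and do not start at 0). Both control STZ arrays of Sdf2l1 and Hyou1 lie above all control sham arrays, those of Hspa5 and Creld2 overlap with them, and P4hb and Ppib are lower in the low protein groups as deposited (with cyclic loess P4hb is at 0.01 after STZ).

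After the low protein diet, STZ went with no common shift of these genes. The median difference was -7e-04, with 16 of 32 genes above 0 (24 after cyclic loess scaling, median 0.10), and over all genes the median was -0.02, with 42.4% above 0. Derl2, a channel component of the degradation pathway, was lower at an unadjusted p under 0.05 (-0.24 ± 0.10, adjusted p = 1, limma), as were 1.91% of all genes, and no listed gene was higher (0.679% of all genes). Syvn1 was the 1 gene with all STZ arrays below all sham arrays (5.14% of all genes), at 10.91, 11.15 and 11.26 against 11.75, 11.31 and 11.38, a difference of -0.37 ± 0.21. No gene had all its STZ arrays above (2.6% of all genes).

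Among the chaperones, Hspa5 was at 0.10 ± 0.32, Hsp90b1 at 0.36 ± 0.39, Calr at 0.24 ± 0.31 and Creld2 at 0.51 ± 0.57. Edem2, which trims glycoproteins marked for degradation, was at -0.24 ± 0.19, Ppib at -0.13 ± 0.19 and Ppp1r15a at 0.07 ± 0.08. All 3 arrays of low protein STZ differed widely for most of these genes. Hspa5, for instance, measured 12.61, 13.61 and 14.07. The median rested on single arrays, at 0.21 with 23 genes above 0 without low protein STZ 1 and at -0.22 with 5 above 0 without low protein STZ 3.

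**Figure D3:**
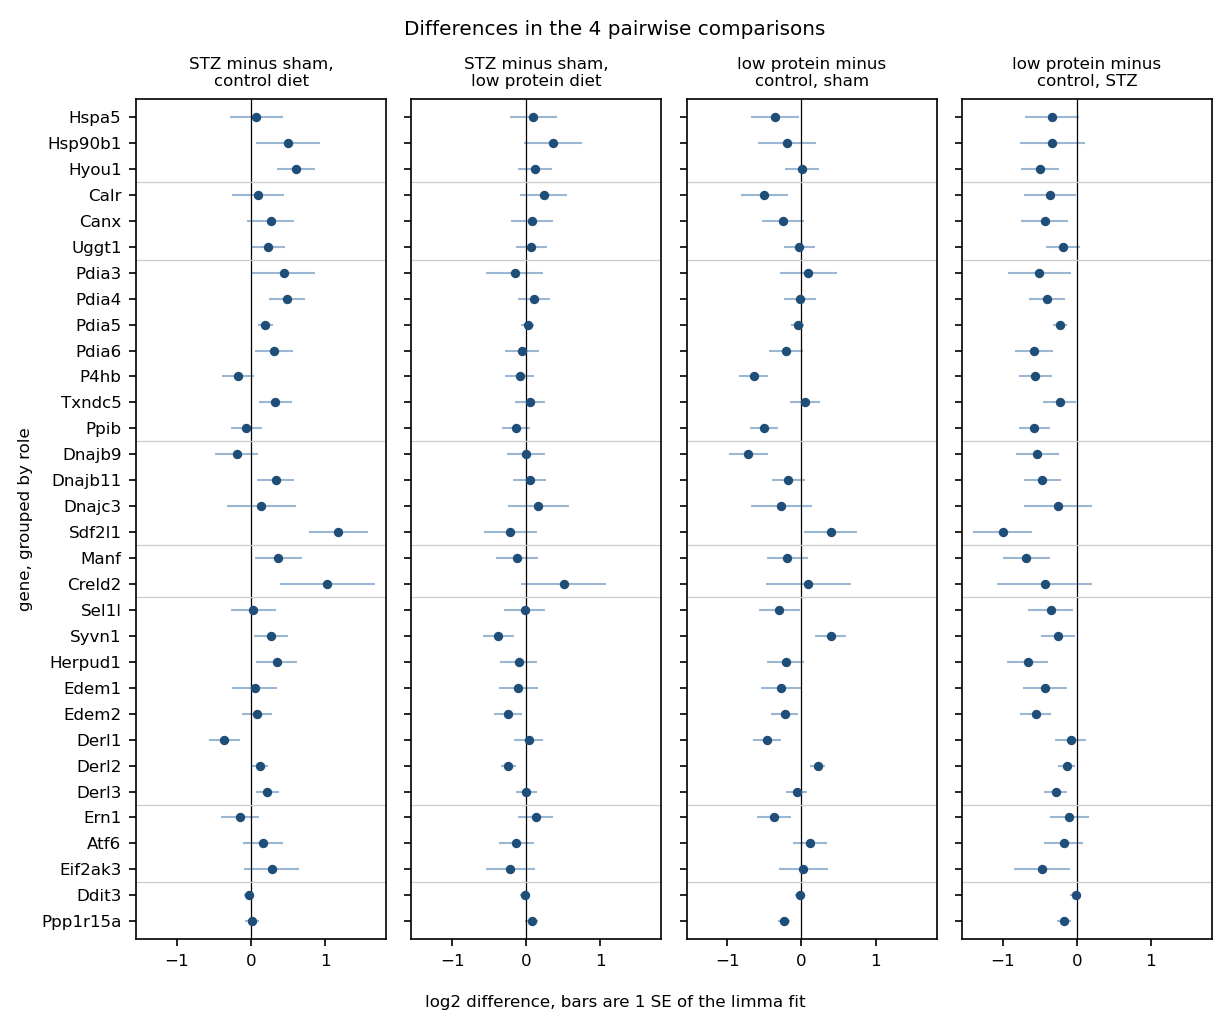
Log2 difference of each of the 32 genes in the 4 pairwise comparisons, with bars of 1 SE from the limma fit. In the first panel 26 genes are above 0, in the second 16, in the third 9 and in the fourth 0 (27, 24, 19 and 11 with cyclic loess), and no gene passed adjustment over all genes in any panel.

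In sham-injected offspring, the direction of the diet difference depended on the scaling. As deposited, 23 of the 32 genes were lower, with a median of -0.19, but after cyclic loess scaling 19 were higher, with a median of 0.01. The median over all genes was -0.02, and 42.3% of them were higher. Among the 594 genes at least as bright as the median listed gene the median was -0.30 and 16% were higher. The median of the list moved to -0.09 without control sham 1 and to -0.07 without low protein sham 2. At an unadjusted p under 0.05, 5 listed genes were lower (7.22% of all genes) and none was higher (3.2% of all genes). With cyclic loess 3 were lower and 2 higher at that level, beside 1564 of all genes in either direction. Without control sham 1 it was 2 lower and 3 higher, beside 1497 of all genes. The 5 genes lower as deposited and Calr had all low protein arrays below all control arrays, which 10.2% of all genes showed. None had them above (5.57%). With loess 3 lay below and 1 above, and the shares of all genes were not counted under that scaling.

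P4hb was the clearest. It measured 15.11, 14.97 and 15.02 in control sham and 14.46, 14.25 and 14.45 in low protein sham. The groups were well apart, by -0.65 ± 0.20 (SE, adjusted p = 0.259, limma). P4hb passed the test without low protein STZ 1, an array outside this comparison that feeds its estimate of spread (adjusted p = 0.0199, limma), in a fit that then called 126 genes. Over its alternatives the adjusted p of P4hb ran from 0.0199 to 0.566. After cyclic loess scaling its difference was -0.18 (adjusted p = 0.467), with the arrays of the groups still apart.

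Ppib, which speeds the proline steps of collagen and other folding, measured 14.05, 13.78 and 14.12 in control sham and 13.56, 13.36 and 13.51 in low protein sham (-0.51 ± 0.19, adjusted p = 0.364, limma, and -0.13 after loess). Dnajb9, the ER co-chaperone that pairs Hspa5 with the sensor IRE1, measured 11.83, 10.87 and 11.23 against 10.54, 10.62 and 10.63. Its difference was the largest of the list in this comparison, -0.72 ± 0.26 (adjusted p = 0.354, limma), and it was -0.60 after loess and -0.455 without control sham 1. Ppp1r15a was at 9.65, 9.55 and 9.65 against 9.34, 9.51 and 9.30, or -0.23 ± 0.08 (adjusted p = 0.350, and -0.20 after loess, limma). The arrays of Ppp1r15a, Dnajb9 and P4hb did not overlap under either scaling. Derl1 was at -0.47 ± 0.19 (adjusted p = 0.415, limma, and -0.35 after loess), but its 3 other probe sets gave 0.05, -0.11 and -0.01.

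Other genes leaned the other way. Derl2 was 0.22 ± 0.10 higher (adjusted p = 0.489, limma) and Syvn1 0.39 ± 0.21 higher (adjusted p = 0.551, limma). After loess these values were 0.25 and 0.54. The other probe set of Derl2, of similar brightness (mean 9.39 against 9.43), gave -0.16, so the direction of Derl2 is uncertain. That of Syvn1 gave 0.37. Sdf2l1 was 0.39 ± 0.35 higher, with the low control sham 3 array among its controls. Ern1 and Hspa5 were lower as deposited on the probe sets used. Ern1 was at -0.37 ± 0.23 (adjusted p = 0.618, limma). Its further probe sets above the brightness limit gave 0.09 and 0.02, so its direction is uncertain. Hspa5 was at -0.36 ± 0.32 (adjusted p = 0.739, limma), with 13.64, 13.09 and 13.26 in low protein sham, and at 0.0047 after loess. Further probe sets of Hspa5 gave 0.03 and -0.19. The acinar markers averaged 14.11 to 14.16 in low protein sham, below every control sham array, and the beta cell markers 8.59 to 9.04. Endothelial markers (6 genes) averaged 8.06 to 8.29 in low protein sham and 8.44 to 8.54 in control sham. Their part in the ER gene values was not tested.

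After STZ, all 32 genes were lower in low protein than in control offspring as deposited, with a median of -0.38, while after cyclic loess scaling 11 were higher and the median was -0.09. Over all genes the median was -0.04, and 37.7% were higher. The 594 bright genes had a median of -0.39, with 14.6% higher. At an unadjusted p under 0.05, 7 listed genes were lower (7.79% of all genes) and none was higher (1.7%). With cyclic loess only 1 was lower, beside 1226 of all genes in either direction. In 9 genes all low protein arrays lay below both control arrays, which 16.8% of all genes showed, and in none above (7.48%). With loess 3 genes lay below, and the shares of all genes were not counted under that scaling. The smallest adjusted p was 0.426 (limma).

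That value belonged to Ppib, which measured 13.96 and 13.87 in control STZ and 12.82, 13.57 and 13.64 in low protein STZ (-0.57 ± 0.21, and -0.10 after loess). P4hb was at 14.85 and 14.86 against 13.73, 14.44 and 14.73, a difference of -0.56 ± 0.22 (adjusted p = 0.459, limma) that was 0.01 after loess. Without low protein STZ 1 the differences were -0.31 for Ppib and -0.27 for P4hb. In both genes low protein STZ 1 was far below the others of its group. Sdf2l1 had the largest difference, with 12.19 and 11.34 against 10.48, 11.13 and 10.68, which gave -0.9995 ± 0.40 (adjusted p = 0.462, limma). The loess value for Sdf2l1 was -0.80, with the arrays of the groups still apart, and without control STZ 1 its difference was -0.57.

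Among the degradation genes, Edem2 was at -0.55 ± 0.21 (adjusted p = 0.438, limma) and Herpud1 at -0.66 ± 0.28 (adjusted p = 0.486, limma). Herpud1 measured 12.84 and 12.92 in control STZ and 12.22, 11.73 and 12.70 in low protein STZ. The isomerases Pdia5 and Pdia6 were at -0.23 ± 0.10 and -0.58 ± 0.26, and Manf at -0.68 ± 0.32. After loess these were -0.22, -0.26 and -0.35. Eif2ak3, Syvn1 and Ppp1r15a, like Ppib, P4hb, Sdf2l1, Edem2, Herpud1 and Pdia6, lay without overlap, at -0.47 ± 0.37, -0.26 ± 0.23 and -0.17 ± 0.09. These separations are as deposited and on the probe sets used. Further probe sets above the brightness limit gave -0.05 for Eif2ak3, -0.05 for Syvn1 and 0.12 for Pdia6. Those of Ppib and Herpud1 gave -0.57 and -0.58. Hspa5 was at -0.34 ± 0.36, and at 0.13 after loess.

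This comparison holds the arrays at both extremes as deposited, control STZ 1 and low protein STZ 1. Without low protein STZ 1 the median was -0.15, with 8 genes higher. Without both it was -0.05, with 12 higher, a setting chosen after seeing the data. Without low protein STZ 3 it was -0.65. Acinar markers averaged 13.76 on low protein STZ 1 and 14.13 and 14.31 on the other arrays of that group. The heat shock genes of the cytosol and mitochondria averaged 9.15, 9.48 and 9.80. As deposited, low protein STZ 1 was thus the lowest array for the ER genes, the acinar markers and these heat shock genes together.

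**Figure D4:**
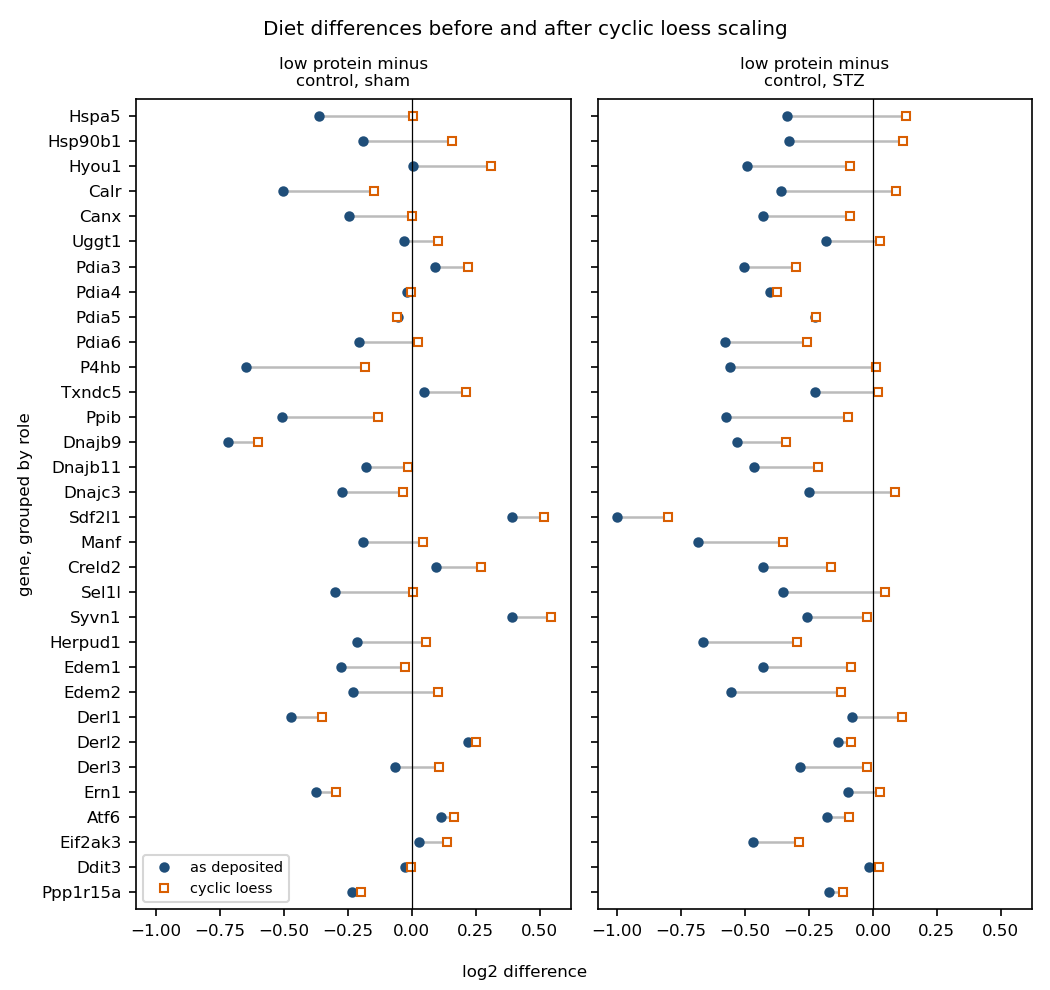
Log2 difference between low protein and control offspring for each of the 32 genes, as deposited (filled circles) and after cyclic loess scaling between arrays (open squares), in sham-injected (left) and STZ-injected (right) mice. The median moves from -0.19 to 0.01 on the left and from -0.38 to -0.09 on the right, while Dnajb9 (left) and Sdf2l1 (right) keep values of -0.60 and -0.80.

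Whether the diets differed in their response to STZ was tested by subtracting the STZ difference in control offspring from that in low protein offspring. The result was below 0 for 23 of the 32 genes, with a median of -0.20, against a median of -0.02 over all genes, of which 45% were above 0. Sdf2l1 was at -1.39 ± 0.53 and Derl2 at -0.36 ± 0.15, both at an unadjusted p under 0.05 as were 2.21% of all genes in that direction, and no listed gene was above 0 at that level (1.35% of all genes). Neither passed adjustment (adjusted p = 1, limma). Leaving out 1 array moved the Sdf2l1 value to between -1.82 and -0.96. For Sdf2l1 the STZ effect was 1.18 in control and -0.21 in low protein offspring. Syvn1 was at -0.65 ± 0.31, from 0.28 in control and -0.37 in low protein offspring.

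The next genes by p were Hyou1 (-0.50 ± 0.34), Derl1 (0.39 ± 0.28), Pdia5 (-0.17 ± 0.13), Herpud1 (-0.45 ± 0.37) and Pdia4 (-0.39 ± 0.33). The other probe sets of Derl1 gave -0.55, -0.14 and 0.06, and that of Pdia4 gave 0.09. Hspa5 was at 0.03 ± 0.48. The median went to 0.01, with 17 genes above 0, without low protein STZ 1, and to 0.11, with 22 above 0, without both extreme arrays. The sign of the median therefore depended on 1 array. The 5 comparisons share groups, so their values for a gene are not independent.

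A wider list of ER genes was read for the same comparisons. It holds 38 measured genes, among them the transcription factors Xbp1 and Atf4, oxidases, isomerases and degradation factors that are not listed above. For STZ in control diet 22 of 38 were above 0, with a median of 0.06. None reached an unadjusted p under 0.05, beside 1.92% of all genes higher and 2.13% lower. Leading values were 0.23 ± 0.11 for Atf6b, 0.37 ± 0.20 for Ganab, the glucosidase of glycan trimming, 0.24 ± 0.13 for Atf4 and -0.32 ± 0.19 for Xbp1. For STZ in low protein diet 9 of 38 were above 0, with a median of -0.04 (26 after cyclic loess, median 0.03), led by Ero1a, the oxidase that feeds the disulfide isomerases, at 0.29 ± 0.16 and Fkbp2 at -0.29 ± 0.20.

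For diet in sham, 8 of 38 were above 0, with a median of -0.14 (15 after cyclic loess, median -0.06). Xbp1, whose spliced form drives much of the response, measured 13.84, 13.37 and 13.83 in control sham and 13.00, 13.16 and 12.97 in low protein sham, a difference of -0.64 ± 0.17 (adjusted p = 0.212, limma). Pdia2, the pancreatic disulfide isomerase, was at -0.63 ± 0.17, Selenos at -0.66 ± 0.19 and Creb3 at -0.18 ± 0.07. After loess Xbp1 was at -0.30, Pdia2 at -0.17, Selenos at -0.39 and Creb3 at -0.10. Under that scaling the arrays of the sham groups overlapped for Xbp1, Pdia2 and Creb3 and stayed apart for Selenos. For diet after STZ, 6 of 38 were above 0, with a median of -0.25 (13 after cyclic loess, median -0.05), and Atf4, the translation-controlled factor of the PERK branch, was at -0.53 ± 0.13 (adjusted p = 0.348, limma). Pdia2 was at -0.56 ± 0.19, Fkbp2 at -0.63 ± 0.22 and Selenos at -0.60 ± 0.21. After loess Atf4 was at -0.29, Pdia2 at 0.0011, Fkbp2 at -0.43 and Selenos at -0.23. Under that scaling the arrays of the STZ groups overlapped for Pdia2 and lay apart for Atf4, Fkbp2 and Selenos. As deposited, 5 genes of this list for diet in sham and 6 for diet after STZ were lower at an unadjusted p under 0.05, and 0 were higher. Of all genes, 7.22% and 7.79% were lower at that level, and 3.2% and 1.7% were higher. The 594 bright genes had medians of -0.30 for diet in sham and -0.39 for diet after STZ. Arrays of this kind read total Xbp1 and do not separate its spliced form.

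Many of the 32 genes had further probe sets, which allowed a check within the same arrays. Of 41 others, 37 were above the brightness limit, on 22 genes. Their difference had the sign of the probe set used in 29 of 37 for STZ in control diet, 25 for STZ in low protein diet, 21 for diet in sham, 32 for diet after STZ and 19 for the difference between the STZ effects. For Hyou1 the further probe sets gave 0.86 and 0.55 after STZ in control diet, beside 0.61. For Hspa5 they gave 0.14 and 0.17, beside 0.07. Sdf2l1, Creld2 and P4hb were each read by 1 probe set only.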

How the data were processed

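RNA from 11 pancreases was measured on Affymetrix arrays. Per the labels and the deposited value table, the signals are on a log2 scale, 1 per probe set, and came from RMA and Partek 6.5 according to the submitters' processing notes, which give no roles or order. Scanner files were not used here. Of 45101 probe sets, 34958 carried 1 gene symbol in GEO's platform annotation, 932 several and 9211 none. Each gene took its 1-symbol probe set with the highest mean. The dimmest genes, with means up to the 0.25 quantile over probe sets, were not tested. Group means were fitted over all arrays with limma 3.58.1 in R 4.3.3, two-sided, with Benjamini-Hochberg adjustment over 15897 genes at 0.05. The fit was tested on simulated data. The number of arrays limits the precision. A gene counts as without overlap where all arrays of one group lie on one side of the other's. The 32 genes and the wider lists were chosen with earlier results of these data known. In each comparison the 8 listed genes with the smallest p and Hspa5 were named with their difference. Of the wider list the leading 4 were named where described, but fewer for STZ in low protein diet. Others were named by role after their values were seen. Motifs were searched in RefSeq promoters with Python 3.11.15. Alternatives covered the replicate block, the samples fitted, moderation, array weights, cyclic loess scaling, the brightness filter, the probe set per gene, RNA integrity and leaving out arrays.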

Additional observations from a re-analysis of the deposited data

How the results depend on the processing

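Over 20 settings beside the one reported, 862 of 891 values of named genes kept their sign and side of the threshold, 27 turned sign (17 of them of Hspa5) and 2 passed the threshold (P4hb for diet in sham, without low protein STZ 1 and without both STZ 1 arrays). No named gene passed in the reported fit, and the count does not measure changes of size. The settings for moderation, the brightness filter and the 2 groups compared cannot change a difference, so these counts are no measure of robustness. Replicate numbers did not pair the samples (r from -0.32 to 0.26 over 15 same-numbered pairs, 5 over 0.1). With the replicate block 0 genes were called in each comparison, the medians of the 32 genes were 0.18, -7e-04, -0.19, -0.37 and -0.19 in the order of the report, and the Hspa5 difference of STZ effects was -0.0119.

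Genes called for diet in sham were 7 with array weights, 0 to 126 when leaving out arrays, and 96 without both STZ 1 arrays, a setting chosen after seeing the data. Leaving out arrays gave 0 to 1 for STZ in control diet and for diet after STZ. The median for diet after STZ was -0.0898 with cyclic loess, -0.65 to -0.15 leaving out 1 array and -0.0474 without both. For the difference of STZ effects it was -0.44 to 0.01, and 0.11 without both.

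Cyclic loess turned Ppib to 0.0452 (STZ in low protein diet), Hspa5 to 0.0047 (diet in sham) and 0.13 (diet after STZ), and P4hb to 0.0105 (diet after STZ). The mean of all probe sets turned the difference of STZ effects to -0.0605 for Derl1 and -0.0219 for Hspa5. Leaving out arrays gave ranges across 0. Those of Hspa5 were -0.24 to 0.39 for STZ in control diet, -0.22 to 0.51 for STZ in low protein diet, -0.66 to 0.39 for diet after STZ and -0.30 to 0.75 for the difference of STZ effects. For STZ in low protein diet, Ppib ran from -0.28 to 0.13 and Calr from -0.0042 to 0.69. With both STZ 1 arrays left out at the upper end, Manf ran from -1.02 to 0.0211 for diet after STZ, and the difference of STZ effects from -0.71 to 0.0018 for Hyou1, -0.32 to 0.0051 for Pdia5 and -0.75 to 0.11 for Pdia4. The cause was not tested. Groups of 2 or 3 arrays limit every comparison, and so do signals whose spread differs between arrays.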
